A study of Gallus gallus with 53 samples.

Results

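A set of 161 probe sets of the chicken genome array were reduced to 0.5 of their signal or less by 90 min after crosslinking of the B cell receptor (BCR) in wild type DT40 cells, with the halving not yet reached at 60 min. They were chosen from the deposited intensities alone. Among the 26866 probe sets with a mean log2 intensity above 1.05 over all 53 columns, d(t) was the log2 intensity at time t after 10 μg/ml anti-IgM minus that of unstimulated wild type cells, and members had to have their largest absolute d below 0, d(90) at or below -1 and d(60) above -1. In all, 309 probe sets (1.15% of those tested) were at or below -1 at 90 min, and the other 148 of these were at or below -1 at 60 min as well. The row identifiers of the deposited table do not pair reliably with the values, so no gene is named, no sequence is shown, and the members are numbered 1 to 161 from the deepest fall at 90 min to the shallowest.

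DT40 is a chicken bursal B cell line. Anti-IgM (M4 in the labels) crosslinks the BCR, and CD40 ligand (CD40L) engages CD40, a receptor of the TNF receptor family. Both receptors feed the ERK kinases, which MEK activates, and the IKK kinases, which release NF-κB by marking its inhibitor IκB for degradation. A transcript level falls when synthesis slows or decay quickens, and an array of total RNA measures the balance of both.

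The labels give 3 cell conditions. Wild type cells (WT) received anti-IgM at 0.1, 1 or 10 μg/ml or CD40L at 1, 3 or 6 μg/ml. Wild type cells pre-treated for 30 min with the MEK inhibitor U0126 (MEK Inh., 5 mM in the labels and 5 μM in the study's methods) and cells with a phosphorylation-site mutant of IKKβ (IKKbetaSA) were stimulated at the highest doses only, that is with anti-IgM at 10 or CD40L at 6 μg/ml. Each of the 10 courses has 1 column at 15, 30, 45, 60 and 90 min, each cell condition has 1 unstimulated column, and each column combines 2 biological replicates, so no spread between cultures can be read from the table. Since no unstimulated column was taken after 0 min, a drift in culture and a response to the stimulus cannot be told apart. Column medians lay between 2.74 and 2.95, with the unstimulated WT column at the lowest value.

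Because the rule read the unstimulated WT column and the WT 10 μg/ml anti-IgM course, the values there describe the members and were not tested. Their median log2 change was -0.16 at 15 min, -0.22 at 30 min, -0.61 at 45 min, -0.84 at 60 min and -1.10 at 90 min, where the lowest value was -1.52. The median intensity went from 22.7 in unstimulated cells to 19.3, 19.5, 15.4, 12.5 and 10.7 at the 5 times. The decline was thus spread over the second part of the course and was not a single drop after 60 min. At 60 min the median member had most of its final fall, with 155 of 161 members at or below -0.5 and 101 at or below -0.8. Between 30 and 45 min 160 members went down, and this step held the largest fall for 57 members, against 38 for the step from 45 to 60 min and 39 for that from 60 to 90 min. The early steps were smaller, with a median of -0.04 between 15 and 30 min, and 27 members at 15 min and 23 at 30 min lay above the unstimulated value. Only 72 members went down in every step.

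**Figure D1:**
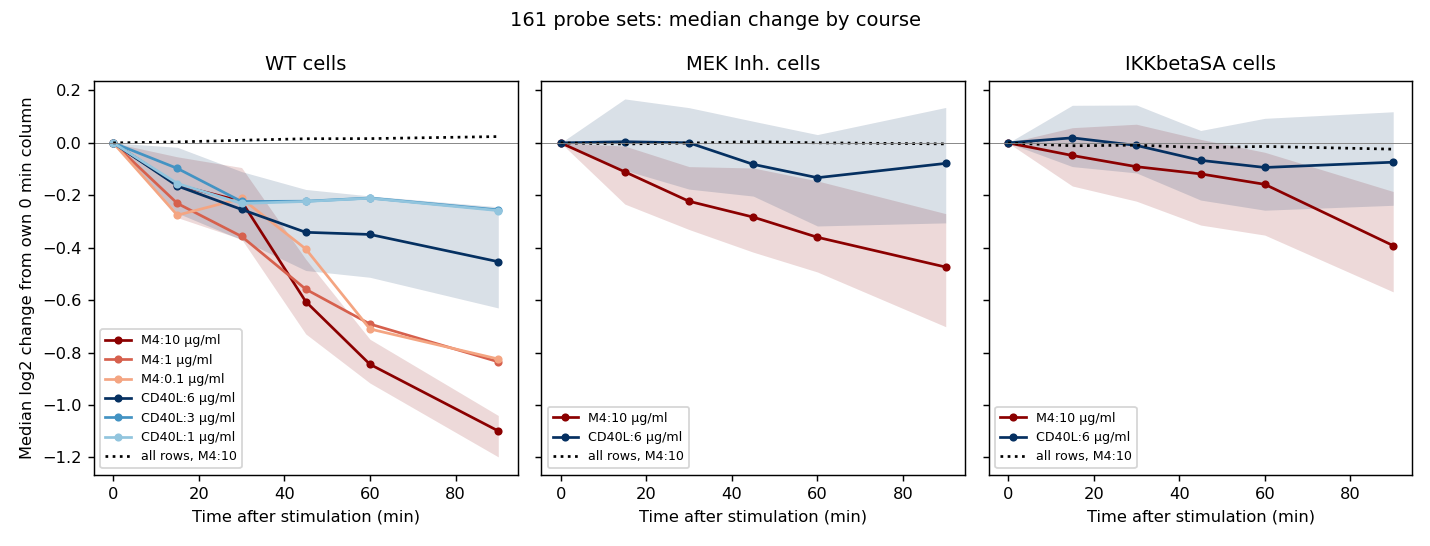
Median log2 change of the 161 probe sets from the unstimulated column of the same cell condition (vertical axis) against time in min (horizontal axis), with 1 panel for each cell condition, shaded quartiles for the highest doses, and the median of all 26866 rows dotted. The WT 10 μg/ml anti-IgM line, which chose the members, ends at -1.10, the lower WT anti-IgM doses at -0.84 and -0.82, MEK Inh. at -0.47 and IKKbetaSA at -0.39. All WT lines share the unstimulated WT column with the rule, which favours deeper falls there, and the panels were not compared by a test.

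Against its working description, the set did not consist only of probe sets first halved at 90 min. Of the members, 4 had already been at or below -1 before 60 min and came back above it, and 1 had its largest change before 90 min. The members just inside the limit at 90 min had d(90) of -1.001 and -1.002 (intensity 35.0 to 17.5, and 10.7 to 5.33), and the nearest ones outside, at -0.9998 and -0.999, went from 31.0 to 15.5 and from 45.4 to 22.7. At the 60 min limit, the nearest members stood at -0.99 and the nearest probe sets left out at -1.002 and -1.003, with intensities at 0, 60 and 90 min of 28.5, 14.4 and 11.7 for one of the former and of 128.9, 64.4 and 53.8 for one of the latter. The filter on dim rows touched none of them, since the dimmest member had a mean log2 of 1.65 and the rule without the filter gave the same 161. The limits therefore cut through a continuous range of declines.

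Members were moderately bright. Their unstimulated WT intensity had a median of 22.7 (quartiles 13.6 and 46.0, range 4.06 to 922.7), against a median of 4.90 over all tested rows. Under an intensity of 10 lay 16.1% of members and 61.6% of tested rows, while 9.32% of members and 12.02% of tested rows reached 100.

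The 5 deepest falls show how the shape varied. Member 1 had intensities of 42.4, 40.4, 37.3, 27.9, 21.7 and 14.8 at 0, 15, 30, 45, 60 and 90 min, a change of -1.52 at 90 min. Member 4 held near its starting level for 30 min, at 66.5, 60.9 and 62.7, and then went through 50.2 and 37.8 to 24.4. Member 5, a dimmer probe set, was at 15.3, 14.3, 16.6, 12.1, 8.09 and 5.65. All 3 lost more between 30 and 90 min than before. Members 2 and 3 ended at 10.95 from 30.7 and at 9.15 from 25.3. Of the 3 brightest members, member 9 took another path, rising from 922.7 to 1460.5 at 15 min and 1571 at 30 min before it went through 932.2 and 540.3 to 347.6. Members 30 and 85 declined at every time, from 482.1 to 202.2 and from 408.3 to 191.3.

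The reference column enters all of these values, and the rule favours members that were high in it. WT T0 was the highest of the 31 WT columns for 63 members, which was not counted over all rows. All 6 WT columns at 15 min, whatever the stimulus, lay below it for 82 members (20% of all tested rows did so). The median of the members' mean change over those 6 columns was -0.19. Taken from the mean of the 6 WT 15 min columns in place of WT T0, the median change at 90 min after 10 μg/ml anti-IgM was -0.94, and 65 members were at or below -1. The unstimulated columns of the other cells were also lower than WT T0, by a median of -0.19 for MEK Inh. (lower in 139 members, against 48% of all tested rows) and of -0.30 for IKKbetaSA (lower in 146, against 45.6%). No member was halved there in MEK Inh. and 6 were in IKKbetaSA cells, again not counted over all rows. Whether the high WT T0 value came from the cells or from the choice of members on this 1 column was not tested. For this reason the tests below leave out all unstimulated columns.

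For the 9 courses that the rule did not use, a straight line was fitted to log2 intensity between 15 and 90 min with limma, over 45 columns with 27 residual degrees of freedom, and its change over these 75 min was called at an adjusted p under 0.05 (Benjamini-Hochberg over 26866 probe sets). The p-values measure how far columns lie from their lines, a bend included, and not the spread between cultures. The median standard error of a fitted change was 0.16.

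Levels also declined in the courses at the lower anti-IgM doses. At 0.1 μg/ml, 111 of 161 members fell (5.26% of all tested rows fell) and none rose (2.02% of all rows did), with a median fitted change of -0.62 and a range from -1.86 to 0.08. At 1 μg/ml, 109 members fell (4.5% of all rows) and none rose (7.76% of all rows), with a median of -0.61 and a range from -2.16 to 0.35. Fitted medians over all rows were 0.01 at both doses. Both counts share 93 members (2.68% of all rows fell at both doses), 34 fell at only 1 of the doses (4.39%) and 34 at neither (92.9%). At an unadjusted p under 0.05, 0 members rose at either dose (7.44% and 14% of all rows). Without the 90 min columns the count at 0.1 μg/ml was 66, and that at 1 μg/ml was 87.

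The median time course at these doses rests on 1 column per time. Its shape was not compared with that at 10 μg/ml, which the rule partly set. At 0.1 μg/ml the median change from WT T0 was -0.28, -0.21, -0.40, -0.71 and -0.82 at the 5 times, with the steepest part between 45 and 60 min. At 1 μg/ml it was -0.23, -0.36, -0.56, -0.69 and -0.84, lower at each time than at the time before. These changes share the reference column with the rule, so they and the halvings counted from it only describe the members. At or below -1 at 90 min were 37 members at 1 μg/ml (0.529% of all rows) and 36 at 0.1 μg/ml (0.558%), 17 at both doses and 105 at neither, and nothing is read from these shares. At 90 min the level at 10 μg/ml was the lower one for all but 8 members against 1 μg/ml and all but 12 against 0.1 μg/ml, which the choice of members at 10 μg/ml favours, and this was not tested.

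Between 0.1 and 1 μg/ml, a 10-fold step in dose outside the rule, the fitted changes hardly differed. The median difference (1 minus 0.1 μg/ml) was 0.03, with quartiles of -0.13 and 0.19, and was below 0 for 74 members. Only member 4 was called (0.0298% of all rows were called lower at 1 μg/ml and 0.141% higher). At an unadjusted p under 0.05 in limma, 7 members were lower (4.72% of all rows) and 9 higher (8.24%). Its intensity went from 61.6 at 15 min to 30.4 at 90 min at 1 μg/ml and from 61.5 to 57.3 at 0.1 μg/ml, a difference of -0.88 ± 0.17 (SE, adjusted p = 0.00976). It was not called without the 30 min or the 90 min columns, where the difference was -0.89 and -0.66.

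**Figure D2:**
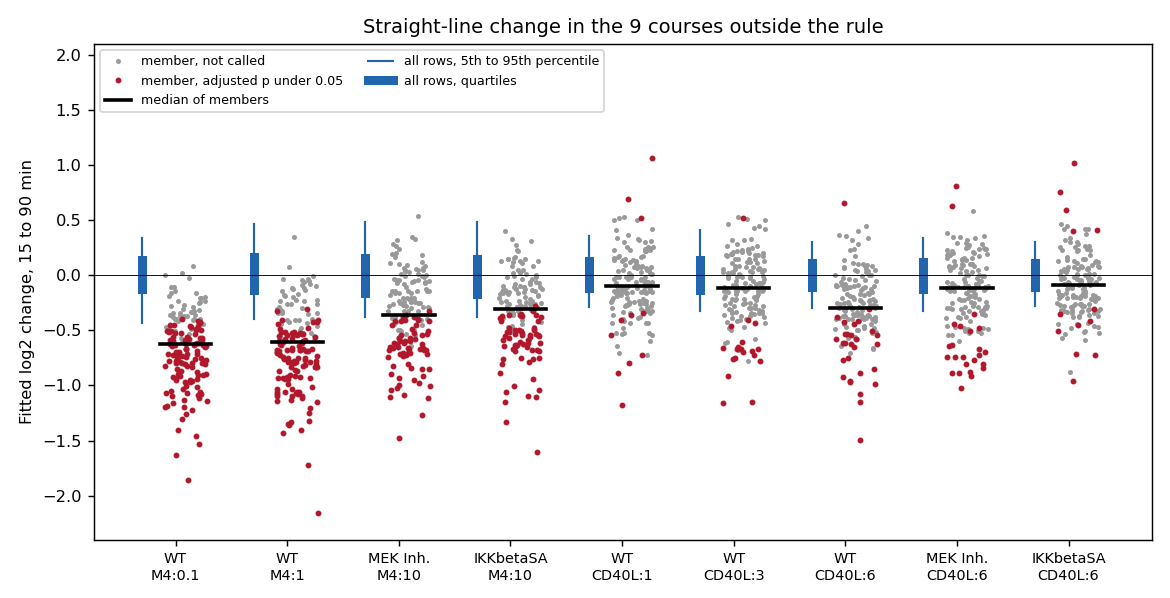
Fitted log2 change between 15 and 90 min (vertical axis) of each of the 161 members in the 9 courses outside the rule (horizontal axis), red where limma's adjusted p was under 0.05, with the members' median as a black bar and the quartiles and 5th to 95th percentiles of all rows in blue. The members lie lowest in the WT anti-IgM courses (medians -0.62 and -0.61), then in MEK Inh. (-0.36) and IKKbetaSA cells (-0.30) after anti-IgM. Among the CD40L courses, the median is -0.30 at 6 μg/ml in WT cells and around -0.10 in the others.

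With MEK inhibited, part of the set still declined in the anti-IgM course. In MEK Inh. cells 66 members fell (3.22% of all rows) and none rose (7.35% of all rows), with a median fitted change of -0.36 and a range from -1.48 to 0.54, and 134 of 161 values lay below 0. The medians against the unstimulated MEK Inh. column were -0.11, -0.22, -0.28, -0.36 and -0.47. Halving at 90 min was reached by 12 members (0.231% of all rows). Rises at an unadjusted p under 0.05 numbered 2 (14.2% of all rows). The called count was 39 without the 15 min columns and 27 without the 90 min columns.

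In IKKbetaSA cells most of the median change lay in the last step, which rests on 1 column, and timing was not tested between conditions. The medians against their own unstimulated column were -0.05, -0.09, -0.12 and -0.16 through 60 min and -0.39 at 90 min, and the 90 min column was the lowest of the 5 for 123 members (25.8% of all rows), against 108 in MEK Inh. cells (24.8%) and 108 and 107 at 1 and 0.1 μg/ml in WT cells (20.3% and 20.2%). By the fitted line 62 members fell (3.03% of all rows) and none rose (6.98%), with a median of -0.30 and a range from -1.60 to 0.41. Halving was reached by 4 members (0.13% of all rows). Rises at an unadjusted p under 0.05 numbered 3 (13.4% of all rows). The count of falls was 18 without the 90 min columns and 38 without the 15 min columns. Leaving out an end time also makes each fitted line less precise, so these counts do not test timing.

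The calls in these 2 conditions overlapped in part. Both counts share 42 members (1.09% of all rows fell in both), which is 63.6% of the 66 and 67.7% of the 62, against 34% and 36.2% of the falls among all rows. A further 24 fell only in MEK Inh. (2.12%), 20 only in IKKbetaSA (1.93%) and 75 in neither (94.9%). Fitted changes in the 2 conditions had a Pearson r of 0.56 and a Spearman rho of 0.54 over the 161 members, which share their choice and the base level of each probe set. In all 4 anti-IgM courses outside the rule 39 members fell (0.744% of all rows), and 24 fell at both lower WT doses but in neither of the altered conditions (1.14%). A member called in one condition and not in another was not thereby shown to differ.

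The difference between the 2 conditions was tested directly. The median of IKKbetaSA minus MEK Inh. was 0.01 (quartiles -0.18 and 0.22). At an unadjusted p under 0.05, 6 members were lower (3.23% of all rows) and 18 higher (4.12%). After adjustment 1 member was higher (0.298% of all rows) and 1 lower (0.0335% of all rows). Member 4 went from 57.7 at 15 min to 44.0 at 90 min in IKKbetaSA and from 32.8 to 15.5 in MEK Inh. cells, a difference of 0.72 ± 0.17 (SE, adjusted p = 0.0445). Member 82, a dim probe set, went from 8.73 to 5.07 in IKKbetaSA and from 7.79 to 9.61 in MEK Inh. cells, a difference of -0.99 ± 0.24 (SE, adjusted p = 0.0471). Neither call held under most other settings, although the differences stayed between 0.68 and 0.90 for member 4 and between -1.05 and -0.69 for member 82.

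Set beside the WT 10 μg/ml course without a test, since the members were chosen there, the fall at 90 min from the own unstimulated column was smaller for 158 members in MEK Inh. and for 160 in IKKbetaSA cells. The 90 min levels in MEK Inh. and IKKbetaSA cells lay above those of the WT 10 μg/ml course by a median of 0.47 and 0.42 on the log2 scale. At 13 and 8 members, respectively, the level was lower than in that course. The levels at 1 and 0.1 μg/ml anti-IgM in WT cells also lay above it, by a median of 0.30 and 0.29.

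**Figure D3:**
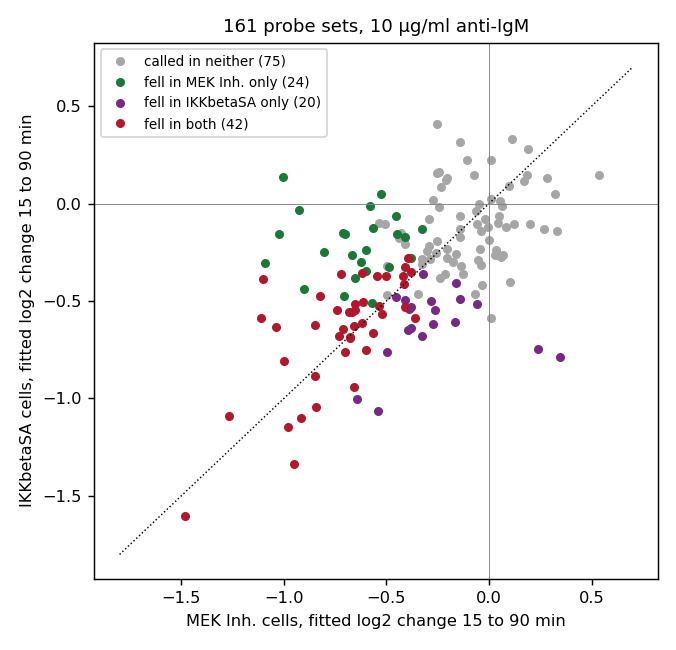
Fitted log2 change between 15 and 90 min after 10 μg/ml anti-IgM in MEK Inh. cells (horizontal axis) and IKKbetaSA cells (vertical axis), 1 point for each of the 161 members, coloured by the courses in which it was called, with the line of equal change dotted. The 42 members that fell in both lie in the lower left, and 75 were called in neither.

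In the WT CD40L courses few members were called, and most of those fell. Few calls do not show that the others held their level. Fitted values lay below 0 for 133, 102 and 101 members at 6, 3 and 1 μg/ml (49.3%, 50.5% and 48.9% of all rows). At 6 μg/ml in WT cells 28 fell (1.19% of all rows) and 1 rose (1.22% of all rows), with a median fitted change of -0.30. At 3 μg/ml 18 fell (1.26%) and 1 rose (3.41%), with a median of -0.12, and at 1 μg/ml 8 fell (0.35%) and 3 rose (1.56%), with a median of -0.10. The count at 6 μg/ml was 9 without the 15 min or the 90 min columns, that at 3 μg/ml 7 without the 15 min columns, and that at 1 μg/ml 5 and 4 without the 15 and 90 min columns.

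Against WT T0, the medians at 90 min were -0.45, -0.26 and -0.26 at 6, 3 and 1 μg/ml. Halving from that column, again a description, was met by 4 (0.164% of all rows), 2 (0.0744%) and 2 members (0.0782%). At 1 and 3 μg/ml most of this offset was present by 30 min (-0.23 and -0.22) and the medians stayed near it to 90 min. The 90 min column was the lowest of the 5 for 90, 65 and 68 members at 6, 3 and 1 μg/ml (21%, 22.8% and 20% of all rows).

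The dose of CD40L was tested as a trend over the 15 WT CD40L columns with time as a factor. The level was lower at higher dose for 18 members (3.18% of all rows) and higher for 3 (2.04% of all rows), with a median of -0.03 and a range from -0.20 to 0.19 on the log2 scale for each doubling of the dose. The share of members with a lower level is above the background and that with a higher one close to it. Each dose is a single course, whose times are not replicates of the dose. A shift of a whole course and a dose trend therefore cannot be told apart. The count of 21 was reduced to 6, 4 and 11 when the 45, 60 or 90 min columns were left out, and to 5 without the error trend.

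In the altered cells the median member stayed in the CD40L courses near its unstimulated level, at -0.08 in MEK Inh. and -0.07 in IKKbetaSA cells at 90 min, and 1 member was halved in each (0.13% and 0.0447% of all rows). The 90 min column was the lowest of the 5 for 50 and 45 members (22.9% and 22.5%). In MEK Inh. cells 22 members fell (1.28% of all rows) and 2 rose (1.43%), and in IKKbetaSA cells 8 fell (0.931%) and 5 rose (1%). The counts of falls were 8 and 7 in MEK Inh. cells without the 15 and 90 min columns, and 4, 5 and 1 in IKKbetaSA cells without those at 30, 60 and 90 min. The median difference from WT cells was 0.12 for MEK Inh. (quartiles -0.01 and 0.28) and 0.18 for IKKbetaSA (quartiles 0.05 and 0.34). In limma 0 members were called for either difference, where 0.0223% and 0.00372% of all rows were called lower and 0.00372% and 0% higher. At an unadjusted p under 0.05, 16 members were higher for MEK Inh. (2.39% of all rows) and 4 lower (2.64%), and 22 were higher for IKKbetaSA (2.01%) and 2 lower (2.07%).

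Anti-IgM and CD40L were compared within each cell condition. Members were chosen for a fall after anti-IgM in WT cells, with no condition on CD40L, which favours lower values after anti-IgM. In WT cells the anti-IgM dose was 1 μg/ml, since the rule used the course at 10 μg/ml, and it was set against the highest CD40L dose. In WT cells the fitted change at 1 μg/ml anti-IgM was lower than that at 6 μg/ml CD40L for 28 members (0.718% of all rows) and higher for none (0.979%), with a median difference of -0.33. In MEK Inh. cells 12 members changed more steeply downwards after anti-IgM (0.368% of all rows) and 0 the other way (0.804%), with a median of -0.20. In IKKbetaSA cells there were 24 (0.767%) and 0 (2.23%), with a median of -0.24. At an unadjusted p under 0.05, 68, 38 and 48 members were lower after anti-IgM (4.76%, 4.66% and 6.36% of all rows) and 4, 3 and 5 higher (7.09%, 6.7% and 9.22%). Without the 90 min columns the called counts were 13, 0 and 3. Leaving out the 15 or the 30 min columns gave 16 or 15 for WT and 5 for MEK Inh. cells, and centring each column on its median gave 18 for WT and 10 for IKKbetaSA cells.

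The called members of smallest p in MEK Inh. and IKKbetaSA cells are described next, a choice that favours large differences. The median differences over all members were -0.20 and -0.24 there. Member 8 went from 44.2 at 15 min to 22.0 at 90 min after anti-IgM and from 43.7 to 45.0 after CD40L in MEK Inh. cells (difference -1.04 ± 0.18 SE, adjusted p = 0.000417, a call lost without the 90 min columns). Member 127 went from 61.9 to 39.6 after anti-IgM and from 57.7 to 68.2 after CD40L in IKKbetaSA cells (difference -0.95 ± 0.13 SE, adjusted p = 1.2e-05). In both, only the anti-IgM course declined.

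**Figure D4:**
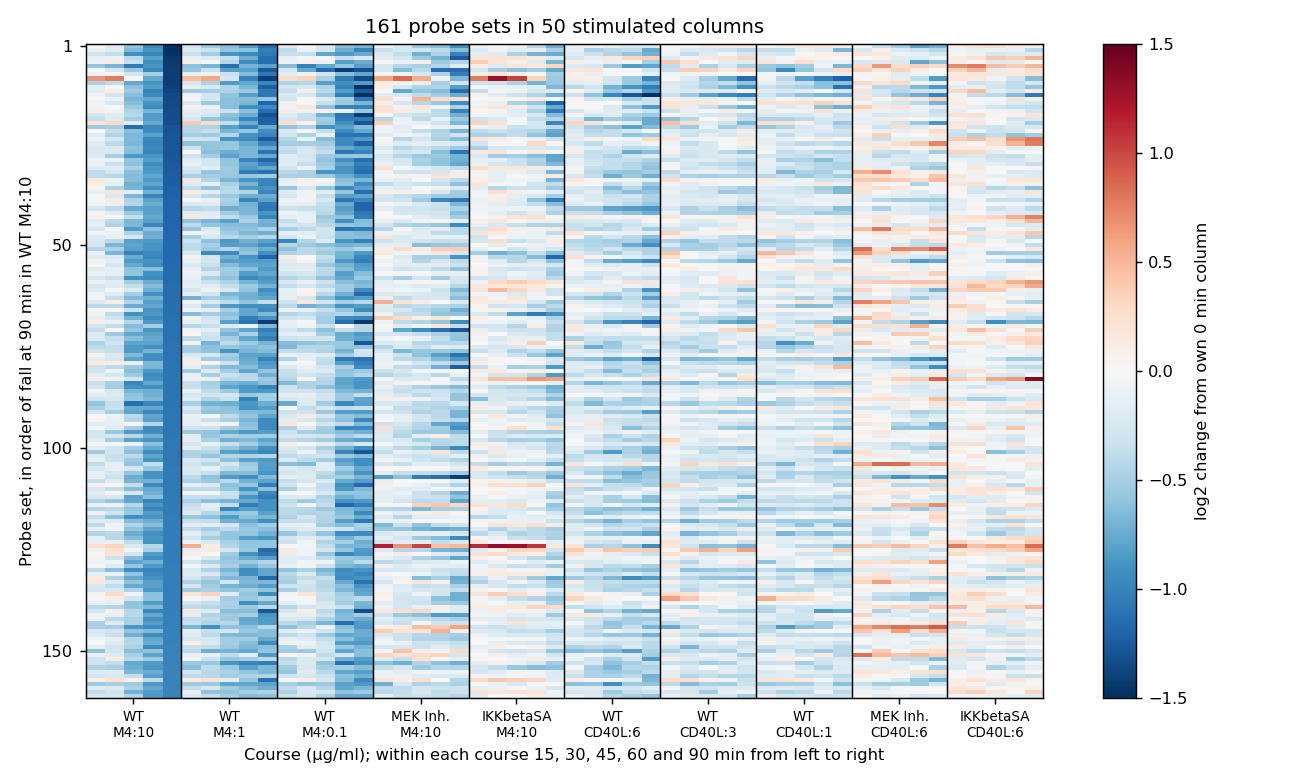
log2 change from the own unstimulated column (colour, limited to 1.5 in either direction) of the 161 members (rows, deepest fall at 90 min on top) in the 50 stimulated columns, grouped by course with time running from left to right. Deep blue covers the later columns of the 3 WT anti-IgM courses, is paler in the MEK Inh. and IKKbetaSA anti-IgM courses, and in the CD40L courses is limited to few rows, such as members 9, 13 and 69. All WT columns share their unstimulated column with the rule, which favours deeper falls there, and the colours were not compared by a test.

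Across all 9 courses, 92 members were called falling in at least 1 anti-IgM course and in no CD40L course (8.08% of all rows), 39 in at least 1 CD40L course (3.08%) and 30 in none (88.8%). Being called in one course and not in another is no test of a difference. Of the 39, 31 also fell at both lower WT anti-IgM doses (1.03% of all rows), and 4 members fell in all 9 courses (0.0558%). Member 30, the second brightest, was one of them, with fitted changes of -0.89 and -0.93 at the lower WT anti-IgM doses, -0.68 in MEK Inh. and -0.56 in IKKbetaSA cells after anti-IgM, and -0.43 to -0.30 in the CD40L courses. Its intensity at 90 min was 202.2, 241.2 and 238.3 at 10, 1 and 0.1 μg/ml anti-IgM, 264.4 and 267.7 in MEK Inh. and IKKbetaSA cells, and from 329.4 to 346.6 in the CD40L courses. Leaving out the WT 10 μg/ml column, which the rule used, its anti-IgM values at 90 min lay below those after CD40L. This was neither tested nor counted over all rows, and these values were picked after they were seen.

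Member 13 was the strongest CD40L case. At 6 μg/ml in WT cells it went through 90.6, 73.7, 57.1, 46.2 and 32.6, a fitted change of -1.49 ± 0.10 (SE, adjusted p = 1.66e-13), and so ended below its 43.7 after 10 μg/ml anti-IgM. It also had the lowest fitted change in IKKbetaSA cells after CD40L, at -0.96 ± 0.10 (SE, adjusted p = 1.64e-08). In MEK Inh. cells after CD40L the lowest was member 61, which fell from 37.5 to 18.4 (-1.02 ± 0.17 SE, adjusted p = 9.82e-05). Its unstimulated MEK Inh. intensity was 30.0, and the change from there to 90 min was -0.70.

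Member 9 rose before it fell, in every anti-IgM course. Its highest column was that at 30 min in each of these, at 1571, 1380.2 and 1164 at 10, 1 and 0.1 μg/ml in WT cells, 1437 in MEK Inh. and 1596 in IKKbetaSA cells, from 922.7, 796.4 and 651.8 in the unstimulated columns. Its fitted change was the lowest of all members at both lower WT doses (-1.86 and -2.16), in MEK Inh. (-1.48) and in IKKbetaSA cells (-1.60), with a standard error of 0.25. These changes start at 15 min, when it was already raised. From the own unstimulated column to 90 min it changed by -0.68 in MEK Inh. and -0.55 in IKKbetaSA cells after anti-IgM. The lowest values of any member there were -1.41 and -1.18. Without the 90 min columns member 9 was not called in MEK Inh. (-1.12) or IKKbetaSA cells (-0.81) after anti-IgM, nor at 3 μg/ml CD40L (-1.28). After CD40L it did not rise as far, with highest columns of 984.6 in WT, 839.6 in MEK Inh. and 740.4 in IKKbetaSA cells, and it fell in the 3 WT courses, with fitted changes of -1.17, -1.16 and -1.15 at 1, 3 and 6 μg/ml, and in MEK Inh. cells (-0.92, adjusted p = 0.037). In IKKbetaSA cells its -0.88 was not called (adjusted p = 0.0611). The standard error of 0.25 is pooled over all 9 courses, so its bends after anti-IgM enter this value as well.

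A few members went the other way after CD40L. In all, 9 members rose in at least 1 CD40L course, which is 5.59% of them and close to the 5.54% of all rows. Of these, 6 fell at both lower WT anti-IgM doses (0.167% of all rows). Member 4 rose after 6 μg/ml CD40L in WT cells, from 55.4 at 15 min to 85.2 at 90 min (0.66 ± 0.12 SE, adjusted p = 0.000514, a call lost without the 15 min columns), and fell after 1 μg/ml anti-IgM (-1.08 ± 0.12 SE, adjusted p = 1.3e-08). Member 83 rose in IKKbetaSA cells from 13.6 to 26.5 (1.02 ± 0.17 SE, adjusted p = 0.000206) and in MEK Inh. cells from 16.6 to 29.0 (0.81 ± 0.17 SE, adjusted p = 0.00368) after CD40L. Both rises of member 83 were lost without the 90 min columns. Member 7 rose from 10.1 to 18.7 at 1 μg/ml CD40L (1.06 ± 0.25 SE, adjusted p = 0.016), a call lost without the 30 min or the 90 min columns. It had stood at 15.1 in unstimulated WT cells. From the own unstimulated column to 90 min, the changes were 0.30 for member 7 and 0.36 for member 4 in these WT courses. For member 83 they were 1.36 in IKKbetaSA and 0.87 in MEK Inh. cells. The highest fitted values after anti-IgM were not called. In IKKbetaSA cells the highest was that of member 83 (0.41 ± 0.17 SE, adjusted p = 0.139). In the other anti-IgM courses outside the rule they were those of dim probe sets. An example is member 144 at 0.54 ± 0.20 in MEK Inh. cells (SE, adjusted p = 0.0795), with intensities from 3.63 to 5.28.

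**Figure D5:**
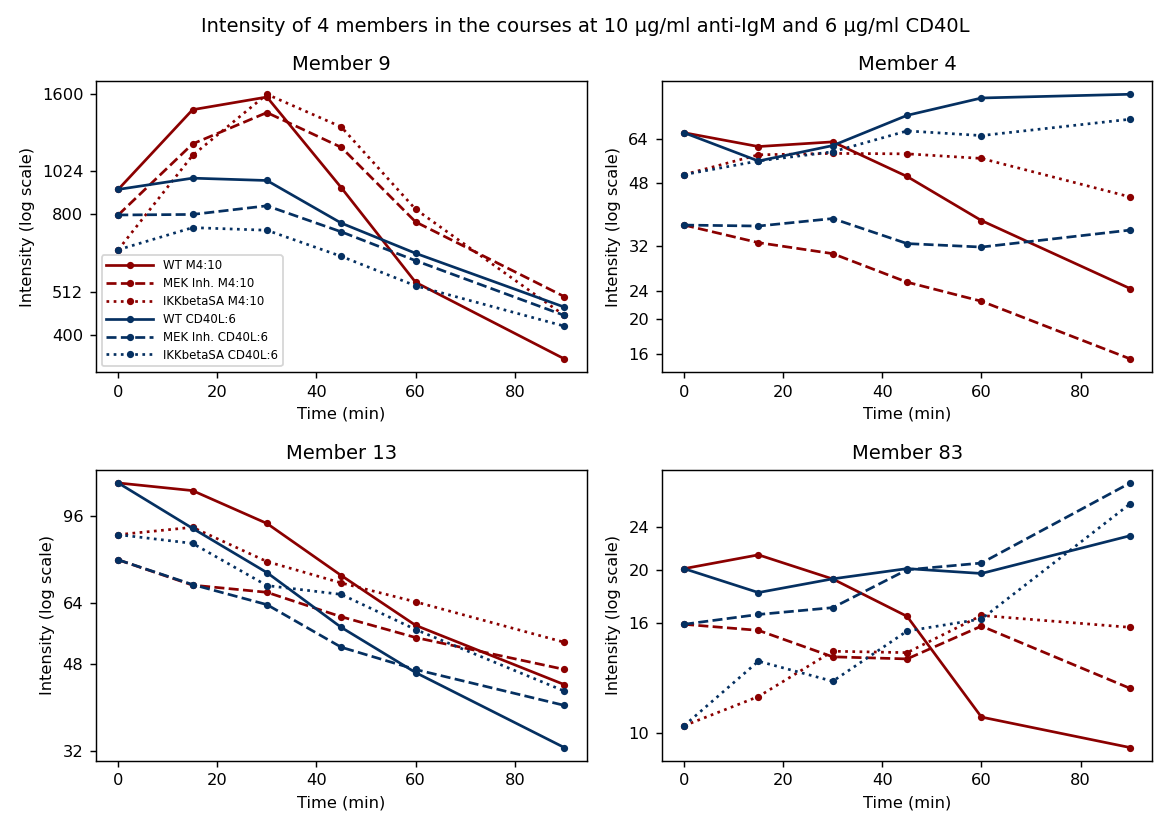
Intensity (vertical axes, log scale) of members 9, 4, 13 and 83 against time in min (horizontal axes) after anti-IgM at 10 (red) and CD40L at 6 μg/ml (blue) in WT (solid), MEK Inh. (dashed) and IKKbetaSA cells (dotted), 1 value per column. Member 9 peaks at 30 min after anti-IgM, member 4 ends at 85.2 after CD40L and 24.4 after anti-IgM in WT cells, member 13 ends below its start in every course, and member 83 ends at 9.40 after anti-IgM in WT cells and 29.0 after CD40L in MEK Inh. cells.

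The change from 15 to 90 min was also set out by base level. By unstimulated WT intensity, 54 dim (4.06 to 16.7), 53 middle (16.8 to 36.1) and 54 bright members (36.2 to 922.7) had median changes of -0.40, -0.45 and -0.66 at 0.1 μg/ml and of -0.52, -0.50 and -0.73 at 1 μg/ml anti-IgM. In MEK Inh. cells they were -0.26, -0.29 and -0.51, and in IKKbetaSA cells -0.15, -0.26 and -0.46. In these 4 courses the bright members had the lowest median, while the dim and middle ones were close to each other in all but IKKbetaSA cells. After CD40L the medians were -0.06, -0.09 and -0.15 at 1 μg/ml, -0.09, -0.14 and -0.19 at 3 μg/ml and -0.31, -0.33 and -0.27 at 6 μg/ml in WT cells. In MEK Inh. cells they were 0.0006, -0.06 and -0.12, and in IKKbetaSA cells -0.05, -0.15 and -0.05, so no single order held in all courses. From the own unstimulated column to 90 min after anti-IgM, the medians were -0.39, -0.39 and -0.59 in MEK Inh. and -0.40, -0.29 and -0.47 in IKKbetaSA cells. These are descriptions without a test.

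The 148 probe sets halved by 60 min, whose median unstimulated intensity was 25.9, were set beside the members in the anti-IgM courses outside the rule. Of these 148, 94, 109, 68 and 72 fell at 0.1 and 1 μg/ml in WT, in MEK Inh. and in IKKbetaSA cells. Of the 161 members, 111, 109, 66 and 62 fell, and of all rows 5.26%, 4.5%, 3.22% and 3.03%. Median fitted changes were -0.67, -0.75, -0.48 and -0.52 for the 148, and -0.62, -0.61, -0.36 and -0.30 for the members. Since both sets were cut from 1 range of declines in the WT 10 μg/ml course, no difference between them was tested.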

How the data were processed

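The authors hybridised RNA of DT40 cells to Affymetrix chicken arrays and deposited intensity values on a linear scale, credited to RMA (version not listed) in the submitters' processing notes. The way in which a column merges its 2 replicates is unstated in these sources. All 53 columns were mapped, and 0 were unused. The members and tests were chosen with earlier results of these data known.

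From the deposited intensities, log2 values without a pseudocount were fitted with R 4.3.3 and limma 3.58.1 (error trend, 18 parameters, Benjamini-Hochberg adjustment). The 11495 of 38361 rows at or under a mean log2 of 1.05 were left out. The CD40L dose trend used 15 columns. The 7 differences between courses were contrasts of slopes. The number of arrays limits the precision.

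Members were singled out by position only: the 5 deepest falls, the 3 brightest, those nearest each threshold, the lowest and highest in each course, and the called one of smallest p in each difference. Member 69 and further values of members 4, 9, 13, 30 and 83 were picked after their values were seen. Row identifiers were not used for names. Of 162 identifiers of ribosomal protein genes, 32 were at or under the filter, and their median intensity was 6.40 against 2.82 for all rows. Alternatives were other filters, a pseudocount of 1, centred columns, no error trend, a quadratic in time, a spline with 3 degrees of freedom, each time left out and other reference columns.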

Additional observations from a re-analysis of the deposited data

Results flagged for a closer look

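Between anti-IgM doses or between cell conditions, the fitted change from 15 to 90 min differed for 2 members by a test of the difference itself. The differences between anti-IgM and CD40L, called for 28, 12 and 24 members in WT, MEK Inh. and IKKbetaSA cells, are given above and not flagged here. Member 4 fell more steeply at 1 than at 0.1 μg/ml anti-IgM in WT cells (-0.88 ± 0.17 SE, adjusted p = 0.00976), and this call was lost without the 30 min or the 90 min columns, with differences of -0.89 and -0.66. The same member fell less in IKKbetaSA than in MEK Inh. cells after 10 μg/ml anti-IgM (0.72 ± 0.17 SE, adjusted p = 0.0445). Member 82 went the other way between these cells (-0.99 ± 0.24 SE, adjusted p = 0.0471). Both of the latter lay just under the threshold and were lost without the filter on dim rows, with centred columns, with a pseudocount, without the error trend, and without the 15, 30, 45 or 90 min columns. Their size moved less, from 0.68 to 0.90 for member 4 and from -1.05 to -0.69 for member 82 over the settings tried.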

How the results depend on the processing

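The rule gave 100 members with the mean of the 3 unstimulated columns as reference (60 of them shared with the 161) and 104 with the mean of the 6 WT 15 min columns (60 shared). It gave 216 with centred columns (110 shared), 120 with a pseudocount of 1 (94 shared) and 121 under the stricter filter. In the WT anti-IgM courses the counts of falls stayed within 1.5 times, except for 66 at 0.1 μg/ml without the 90 min columns. Under the stricter filter these counts were 105 and 101 at 0.1 and 1 μg/ml, out of the 121 members left. Falls without the 15 min columns were 5, 7 and 9 at 1, 3 and 6 μg/ml CD40L, 39 and 8 in MEK Inh. cells after anti-IgM and CD40L, and 38 in IKKbetaSA cells after anti-IgM. Falls without the 90 min columns were 4 and 9 at 1 and 6 μg/ml CD40L, 27 and 7 in MEK Inh. cells and 18 and 1 in IKKbetaSA cells. IKKbetaSA cells after CD40L had 4 and 5 falls without the 30 and 60 min columns. Under the stricter filter (mean log2 above 3.3) they had 13 falls among the 121 members left, and 1 μg/ml CD40L also had 13.

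For 1 minus 0.1 μg/ml anti-IgM, 2, 0 and 0 members were called without the 15, 30 and 90 min columns. For 1 μg/ml anti-IgM minus 6 μg/ml CD40L the counts were 16, 15 and 13 without these times and 18 with centred columns. For MEK Inh. minus WT after CD40L, 1 member was called under the stricter filter, without the 90 min columns and with a quadratic in time. For IKKbetaSA minus MEK Inh., 0 were called without the filter, with centred columns, a pseudocount or no error trend, or without the 15, 30, 45 or 90 min columns, and 1 without the 60 min columns or with a quadratic. For anti-IgM minus CD40L in MEK Inh. cells the counts were 5, 5 and 0 without the 15, 30 and 90 min columns, and in IKKbetaSA cells 3 without the 90 min columns and 10 with centred columns. The CD40L dose trend was called for 6, 4 and 11 members without the 45, 60 and 90 min columns and for 5 without the error trend. Member 51 at 0.1 μg/ml anti-IgM, at 0.08 and not called, was at -0.037 without the 15 min columns. Of the other values, for single members and for counts of rises, 314 kept their direction and side of the threshold or stayed close, 29 lost the call, 3 gained it and 22 counts moved by more than 1.5 times. The cause was not tested, beyond the fewer columns in fits that leave out a time.

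No paired analysis was possible because each condition and time has 1 column, in which the replicates are combined. Precision is limited by these single columns, and deviations that columns of 1 course share are not covered by the p-values.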
